A study of Homo sapiens with 18 samples.

Results

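GPR84 is a G protein-coupled receptor of myeloid cells, and its transcript was followed here through 18 RNA-seq libraries from 3 human acute myeloid leukaemia cell lines. It is 1 of the 40184 Ensembl gene IDs in the deposited expression table (ENSG00000139572). It was selected on its log2 change with the SHP2 inhibitor RMC-4550 in each line and the rank of that change, so that change is given below as a description, without a test. Each line (Molm-14, MV4-11, SKNO-1) received DMSO, the solvent, or RMC-4550 at 500 nM for 24 h, and each of the 6 groups has 3 libraries that the labels call biological replicates. Molm-14 and MV4-11 carry FLT3-ITD, an internal tandem duplication that activates the receptor tyrosine kinase FLT3. SKNO-1 carries KIT N822K, a mutation in another receptor tyrosine kinase, and was the line grown with GM-CSF, at 10 ng/mL. Line, mutation and growth factor therefore cannot be told apart, and each genotype is represented by no more than a pair of lines.

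GPR84 couples to inhibitory (Gi) proteins, which lower cyclic AMP and release beta-gamma subunits, and it responds to medium-chain fatty acids and their hydroxylated forms. Neutrophils, monocytes and macrophages carry it, and inflammatory stimuli are known to raise its transcript in macrophages. In acute myeloid leukaemia the receptor has been linked to beta-catenin signalling and leukaemic stem cell function. RMC-4550 is an allosteric inhibitor that holds SHP2, the phosphatase encoded by PTPN11, in its closed form. SHP2 passes signals from receptor tyrosine kinases such as FLT3 and KIT to RAS and the MAPK pathway.

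Read totals lay between 17434810 and 19959917 per library. The mitochondrial share of reads was 5.07 to 7.02% in 14 libraries and above 10% in the other 4, which were replicate 2 of Molm-14 with RMC-4550, replicates 1 and 3 of MV4-11 with DMSO and replicate 1 of MV4-11 with RMC-4550. All 7 myeloid markers examined were above 1 CPM, the read count relative to the scaled library size, on average in every group, and their summed level was 1265 to 1740 CPM. MPO, the granule enzyme of the neutrophil lineage, was 317 CPM in SKNO-1 with DMSO and 1.44 to 3.58 CPM in the 4 groups of Molm-14 and MV4-11. The T cell markers CD3E and CD3D had at most 1 read in any library.

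The highest GPR84 levels were those of Molm-14 with DMSO, at 32.7, 31.1 and 31.1 CPM in replicates 1 to 3 (31.7 ± 0.932, SD, n = 3). With RMC-4550 the values were 3.17, 3.01 and 3.56 CPM (3.25 ± 0.284, SD, n = 3). These stand on 539 to 589 reads per library with DMSO and 47 to 63 with the drug. All 3 treated libraries of Molm-14 thus lay far below all 3 controls, and the lowest control was 8.72-fold above the highest treated library. In MV4-11 with DMSO the values were 16.8, 16.5 and 15.6 CPM (16.3 ± 0.637, SD, n = 3), and with RMC-4550 they were 2.22, 2.13 and 2.28 CPM (2.21 ± 0.0791, SD, n = 3). The groups of MV4-11 were again apart, with 6.81-fold between the lowest control and the highest treated library. SKNO-1 held little of the transcript, with 1.80, 1.19 and 1.84 CPM in DMSO (1.61 ± 0.361, SD, n = 3) and 0.324, 0.186 and 0.138 CPM in RMC-4550 (0.216 ± 0.0966, SD, n = 3). The SKNO-1 groups did not overlap either, but the values rest on 39, 26 and 39 reads with DMSO and on 7, 4 and 3 reads with the drug. In bulk samples, fewer cells expressing GPR84 and less GPR84 RNA per cell cannot be told apart.

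**Figure D1:**
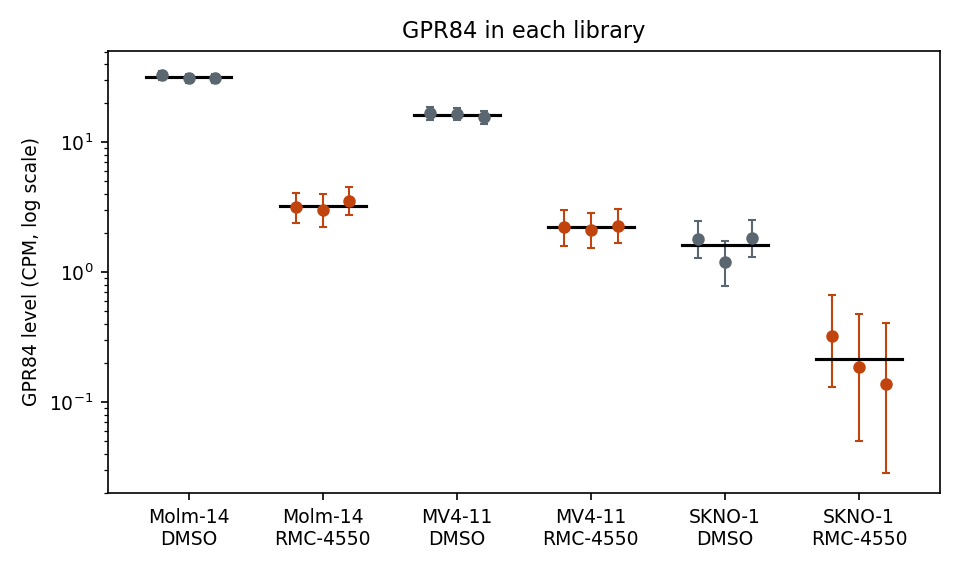
GPR84 level in CPM on a log axis in each of the 18 libraries, by line and treatment; points are libraries with 95% exact Poisson intervals that cover counting error only, and horizontal bars are group means. Within each line the 3 RMC-4550 libraries lie below the 3 DMSO libraries, and the intervals are widest in SKNO-1 with RMC-4550, where 3 to 7 reads were counted.

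For Molm-14 the log2 change with RMC-4550 was -3.28, for MV4-11 -2.87 and for SKNO-1 -2.82, each with a standard error of 0.23 from a spread pooled over all 6 groups. The log2 SD with DMSO and with the drug was 0.042 and 0.123 in Molm-14, 0.057 and 0.051 in MV4-11, and 0.346 and 0.564 in SKNO-1. The shared error is therefore too small for SKNO-1 and too large for the other lines. On the log2(CPM + 1) scale, which compresses low levels, these became -2.94, -2.43 and -1.10, so the likeness of SKNO-1 to MV4-11 depends on the scale. As a share of the control level, Molm-14 kept 10.3% of its GPR84 (95% interval 8.73 to 12.1%), MV4-11 kept 13.6% (11.2 to 16.3%) and SKNO-1 kept 13.4% (7.09 to 23.5%). These are exact conditional binomial intervals on reads summed over replicates, 1687 against 168, 894 against 129 and 104 against 14. They cover counting error only, since the reads were summed and the spread between replicates is left out. Reads may also not be independent molecules, where amplified copies were counted. The interval of SKNO-1 is the widest and contains the shares of the other lines. In SKNO-1 the gene met the filter for testing, 1 CPM in 3 libraries of the line, through its 3 DMSO libraries alone, so any gene entering that way had to differ.

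Among the genes tested in a line, the change of GPR84 ranked 7th of 13971 by size of fall for Molm-14, 2nd of 14739 for MV4-11 and 11th of 14670 for SKNO-1. The share of tested genes called lower was 25.2% for Molm-14, 8.03% for MV4-11 and 16.2% for SKNO-1 (limma, Benjamini-Hochberg adjusted p under 0.05). The share with treated libraries all below the controls was 33.1%, 13.5% and 35.4%. Among genes with a mean of at least 5 CPM, GPR84 was 3rd of 10631 in Molm-14, behind SPRY4 (-3.65) and ETV4 (-3.47), a feedback inhibitor and a transcription factor of the MAPK pathway. It was followed there by ETV5 (-2.68) and HMGCS1 (-2.50). In MV4-11 it was 1st of 10970, before MIR222HG (-2.38), TNF (-2.20) and MLPH (-1.95). In SKNO-1 its mean of 0.913 CPM left it out of that set. Over all genes tested there, the changes next above it were those of ETV4 (-3.28), TNF (-3.08) and NOS2 (-3.03), and next below were MCM10 (-2.62), MIR222HG (-2.53) and TMEM121B (-2.49). Like GPR84, the genes ETV4, NOS2 and MIR222HG met the filter there through their DMSO libraries alone.

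Ranked by the smallest of its 3 falls, GPR84 came 1st of the 12792 genes tested in all 3 lines, at -2.82. OCSTAMP (-2.74), MIR222HG (-2.38), TNF (-2.20) and ANKRD18DP (-1.86) followed. A fall of at least 2 on the log2 scale in every line was seen for 4 genes, and of at least 1 for 59. By the limma test, 5.8% of these 12792 genes were called lower in all 3 lines and 3.11% higher. These ranks restate the choice of the gene and support nothing beyond it.

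**Figure D2:**
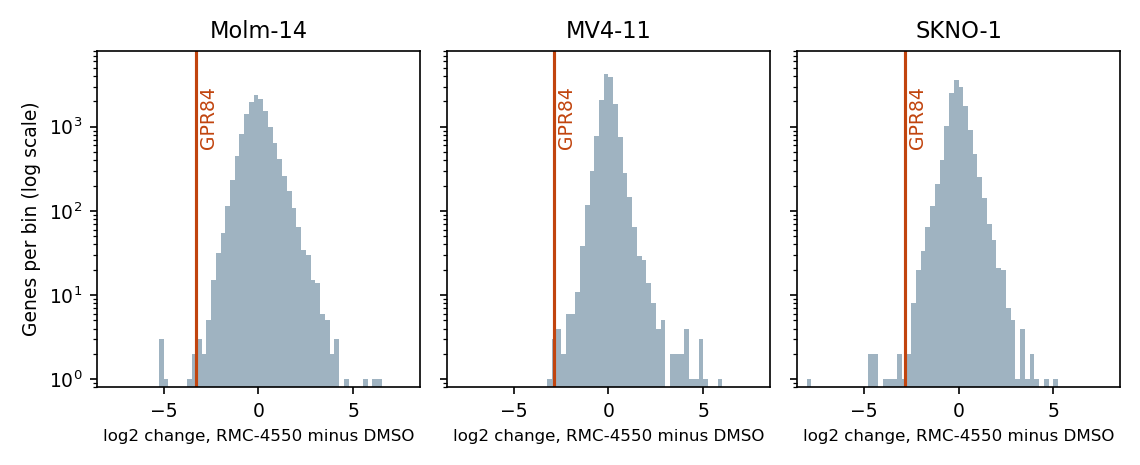
Histograms of the log2 change with RMC-4550 for all genes tested in each line, counted on a log axis, with the change of GPR84 marked by a line. GPR84 lies in the far lower tail in each line, at -3.28, -2.87 and -2.82, where the medians of all genes are -0.06, -0.01 and -0.05.

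Because 4 libraries had a high mitochondrial share, the change of GPR84 was also computed among libraries of like share. In Molm-14 it was -3.22 among libraries below 10% (3 controls and 2 treated). In MV4-11 it was -2.89 below 10% (1 control and 2 treated) and -2.85 above (2 controls and 1 treated). In SKNO-1 all libraries were below 10%. Both MV4-11 values rest on a single library in one treatment, and the part of the mitochondrial share in the change was not tested.

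The levels with DMSO also differed between lines. They enter the changes that GPR84 was selected on, so they too are given as a description, without a test. With DMSO, GPR84 was lower in SKNO-1 than in Molm-14 by 19.8-fold (log2 difference -4.30, SE 0.23). It was lower in SKNO-1 than in MV4-11 by 10.2-fold (-3.34, SE 0.23), and 1.94-fold higher in Molm-14 than in MV4-11 (0.96, SE 0.23). These standard errors come from the same spread pooled over all 6 groups. All 3 control libraries of the higher line lay above those of the lower line in each pair. Differences of this kind were common, with 33.6%, 22.4% and 29.1% of genes called by limma in the direction of GPR84 in these contrasts. GPR84 ranked 296th, 234th and 1214th by size among genes of that direction. These contrasts use the same DMSO libraries as the drug changes. In the treated libraries the same differences were -3.85, -3.30 and 0.55, so the order of the lines was the same with and without the drug.

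Ordered by mean, the groups ran from Molm-14 with DMSO through MV4-11 with DMSO, Molm-14 with RMC-4550, MV4-11 with RMC-4550 and SKNO-1 with DMSO to SKNO-1 with RMC-4550. Steps between neighbours were 1.95-fold, 5.01-fold, 1.47-fold, 1.37-fold and 7.46-fold. No neighbouring groups overlapped in CPM. Counting intervals of single libraries did overlap between Molm-14 and MV4-11 with the drug, and between MV4-11 with the drug and SKNO-1 without it, so these neighbours are not separated beyond counting error library by library. Treated Molm-14 and MV4-11 both had higher means than untreated SKNO-1.

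Levels of different genes were compared per length, as CPM per kilobase of exon. GPR84 stood at 15.5 CPM per kilobase in Molm-14 with DMSO, above 81.2% of 16078 genes, and at 1.59 with RMC-4550, above 31.7%. In MV4-11 it went from 7.96 (above 67.5%) to 1.08 (above 23.8%), and in SKNO-1 from 0.788 (above 20.8%) to 0.106 (above 3.45%). The transcript was thus above the median gene in the untreated FLT3-ITD lines and below it in SKNO-1. Among 62 receptors, GPR84 and 61 listed receptors for metabolites, lipids and chemoattractants on myeloid cells, it ranked 6th in Molm-14 with DMSO and 22nd with the drug. The ranks were 13th and 29th in MV4-11, and 30th and 46th in SKNO-1. CXCR4, the chemokine receptor that retains cells in bone marrow, was the highest of the 62 in all 6 groups.

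**Figure D3:**
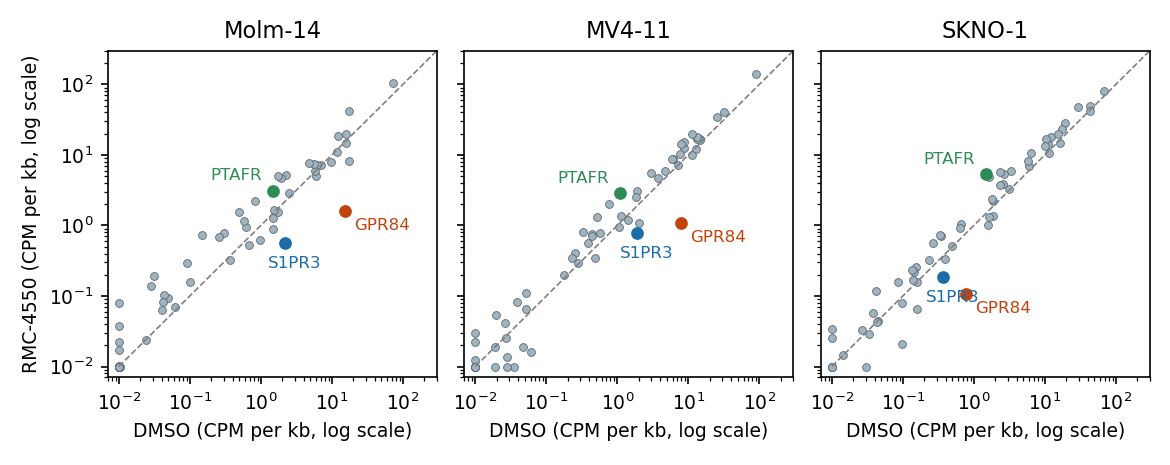
Mean level per length, in CPM per kilobase on log axes, of GPR84 and 61 other receptors with DMSO (x axis) and with RMC-4550 (y axis) in each line; the diagonal marks equal levels. GPR84 lies well below the diagonal in each panel, S1PR3 less far below it, and PTAFR above it; the lowest values are drawn at the axis edge.

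The other receptors did not share the direction of GPR84 as a group. In Molm-14, of 33 tested, 4 fell and 15 rose, with a median change of 0.22 on the log2 scale against -0.06 for all genes. In MV4-11, of 36 tested, 2 fell and 15 rose (median 0.46 against -0.01), and in SKNO-1, of 36, 2 fell and 14 rose (median 0.46 against -0.05). The share of all genes called lower was 25.2%, 8.03% and 16.2%, and called higher 21.5%, 5.85% and 10.8%. Of the 29 tested in all lines, 1 was called lower in all and 6 higher. Over all genes tested in every line, 5.8% were called lower in all 3 and 3.11% higher. S1PR3, a receptor for sphingosine 1-phosphate, was the 1 that was called lower in every line, with log2 changes of -2.04 (Molm-14), -1.20 (MV4-11) and -0.98 (SKNO-1). Its call in MV4-11 was lost in a separate fit of that line (limma adjusted p = 0.051), and without DMSO replicate 2 (-0.90) or RMC-4550 replicate 1 (-1.08). Its call in SKNO-1 was lost without DMSO replicate 1 (-0.91), DMSO replicate 3 (-0.94), RMC-4550 replicate 1 (-1.06) or RMC-4550 replicate 3 (-0.70).

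PTAFR, the receptor for platelet-activating factor, rose in all 3 lines, by 1.08, 1.39 and 1.84 on the log2 scale (limma adjusted p = 3.1e-06, 1.0e-06 and 2.4e-08). Its group means went from 6.94 to 14.7 CPM in Molm-14, from 5.17 to 13.6 in MV4-11 and from 7.04 to 25.2 in SKNO-1. The adhesion receptor ADGRG5 (1.27, 0.79 and 0.71) and the nucleotide receptor P2RY6 (0.72, 0.50 and 0.72) also rose in each line, but a separate fit of MV4-11 lost both calls there (limma adjusted p = 0.068 and 0.070). GPR84 and PTAFR, both receptors of myeloid cells, thus had opposite changes in the same libraries.

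Genes that act behind a Gi-coupled receptor, namely G protein subunits, regulators of G protein signalling, adenylyl cyclases, receptor kinases and arrestins, were also counted. Of 44 tested in Molm-14, 6 fell and 13 rose (median 0.02). Of 44 in MV4-11, 4 fell and 2 rose (median 0.07), and of 45 in SKNO-1, 7 fell and 8 rose (median -0.04). Beside these stand the shares of all genes called lower, 25.2%, 8.03% and 16.2%, and higher, 21.5%, 5.85% and 10.8%. RGS16, which speeds the shut-off of Gi proteins, was the 1 member of 41 called lower in all lines (-0.94, -0.45 and -1.04), where 5.8% of all genes were. In MV4-11 its call was lost without DMSO replicate 1 (-0.42), DMSO replicate 3 (-0.37), RMC-4550 replicate 2 (-0.42) or RMC-4550 replicate 3 (-0.42). It was also lost in MV4-11 with no filter (limma adjusted p = 0.057), median-ratio scaling (0.053), quantile normalization (0.081) or a separate fit (0.115). PIK3R5 was the 1 member of 41 called higher in all lines (0.55, 0.52 and 0.39), where 3.11% of all genes were. A separate fit lost its MV4-11 call (limma adjusted p = 0.180), and its SKNO-1 call was lost in 11 of 18 fits that left out 1 library. GNAI1, a Gi alpha subunit, fell in SKNO-1 (-2.19), and GPSM1, which binds free Gi alpha subunits, rose in Molm-14 (3.21). GNAI1 met the filter for testing there through its DMSO libraries alone, with at most 13 reads in a treated library. GPSM1 met it through its treated libraries alone, with at most 14 reads in a DMSO library. Genes entering that way had to differ, so both changes are descriptions.

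Inflammatory genes are of interest because inflammatory stimuli raise GPR84 in macrophages. In Molm-14, of 21 tested, 7 fell and 4 rose (median -0.10). In MV4-11 7 of 23 fell and 4 rose (median -0.02), and in SKNO-1 8 of 28 fell and 3 rose (median -0.18). The shares of all genes called lower were 25.2%, 8.03% and 16.2%, and higher 21.5%, 5.85% and 10.8%. TNF, PLAUR and TNFAIP3 were called lower in all 3 lines, of 21 tested in each, and 5.8% of all genes were called lower in all 3. TNF, the cytokine, had group means that went from 83.6 to 17.5 CPM in Molm-14, from 86.6 to 18.8 in MV4-11 and from 16.4 to 1.94 in SKNO-1 (-2.26, -2.20 and -3.08, limma adjusted p = 1.6e-09, 3.1e-09 and 2.1e-10). Its treated libraries lay below its controls in each line, as for GPR84. PLAUR, the urokinase receptor, changed by -0.79, -0.80 and -0.83, and TNFAIP3, an inhibitor of NF-kappaB signalling, by -0.78, -0.45 and -0.81. CD86, a co-stimulatory molecule of antigen-presenting cells, rose in each line (1.70 in Molm-14, 1.32 in MV4-11), and TNFAIP2 rose by 1.16, 0.54 and 0.58. A separate fit of MV4-11 lost the calls of TNFAIP3 (limma adjusted p = 0.057) and TNFAIP2 (0.062) there. The chemokine CCL2 fell in SKNO-1 (-3.61). It met the filter for testing there through its DMSO libraries alone, with at most 7 reads in a treated library, so it had to differ.

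Components and targets of beta-catenin signalling, the pathway linked to GPR84 in leukaemic stem cells, were counted the same way. Of 33 tested in Molm-14, 5 fell and 6 rose (median 0.03), and of 35 in MV4-11, 1 fell and 2 rose (median 0.01). In SKNO-1 6 of 35 fell and 3 rose (median -0.11). Over all genes the shares were 25.2%, 8.03% and 16.2% lower and 21.5%, 5.85% and 10.8% higher. FZD2 was the 1 member of 33 called higher in all lines (0.98, 0.30 and 0.47), where 3.11% of all genes were, and 0 were called lower in all. Its MV4-11 call (limma adjusted p = 0.048) was lost in 13 of 18 fits that left out 1 library, and in a separate fit (0.20). ZNRF3, which removes Wnt receptors from the membrane, fell in Molm-14 (-1.26) and SKNO-1 (-0.86). In MV4-11 it was at 0.10 and was not called (limma adjusted p = 0.80).

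GPR84 lies on the minus strand of chromosome 12 at 54362445-54364487 (GRCh38, GENCODE 29), with an annotated exon union of 2043 bases. One annotated transcript has exons at 54364393-54364474 and 54362445-54363859, and another has a single exon at 54362447-54364487. A pair of antisense genes named GPR84-AS1 span it on the plus strand, ENSG00000258137 at 54353661-54497688 and ENSG00000258086 at 54353792-54466985, and GPR84 lies within their introns. They had 0 to 8 and 7 to 23 reads per library. Whether reads were assigned by strand was not stated, so unspliced antisense reads over GPR84 cannot be told apart from its own. The annotated antisense exons lie outside GPR84, so counts over those exons do not measure such reads. The antisense counts did not approach the 539 to 589 GPR84 reads of untreated Molm-14, but they exceeded the 3 to 7 GPR84 reads of treated SKNO-1 in one of the genes.

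None of the 6 nearest protein-coding neighbours of GPR84 was called lower in more than 1 line. Over all genes, the shares called lower were 25.2%, 8.03% and 16.2%, with the lines ordered as above. Of genes tested in every line, 5.8% were called lower in all 3 and 3.11% higher. Against such shares, 6 genes are too few for the lack of a shared fall to set this locus apart. ZNF385A, 4646 bases away, rose in all 3 lines (1.25, 0.50 and 0.65). Its MV4-11 call was lost with quantile normalization (limma adjusted p = 0.053), in a separate fit (0.125), and without DMSO replicate 2 (0.37), RMC-4550 replicate 1 (0.43) or RMC-4550 replicate 3 (0.49). COPZ1, a coat protein gene 10596 bases away, was at -0.01, 0.09 and -0.10 and was called in no line. ITGA5, an integrin subunit gene 30774 bases away, was at 0.23, 0.18 and -0.32. It was called in SKNO-1 (limma adjusted p = 0.018), a call lost with no filter on low values (limma adjusted p = 0.057) and without SKNO-1 DMSO replicate 2 (-0.31), DMSO replicate 3 (-0.30) or RMC-4550 replicate 1 (-0.28). NFE2, a myeloid and erythroid transcription factor gene 61324 bases away, rose by 0.72, 0.70 and 1.27 (limma adjusted p = 3.8e-06, 2.5e-05 and 2.3e-08). HNRNPA1, 75357 bases away, was at -0.25, -0.07 and -0.02 and was called in no line. GTSF1, 91463 bases away, was tested in SKNO-1 alone, at -0.60 (limma adjusted p = 0.35).

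**Figure D4:**
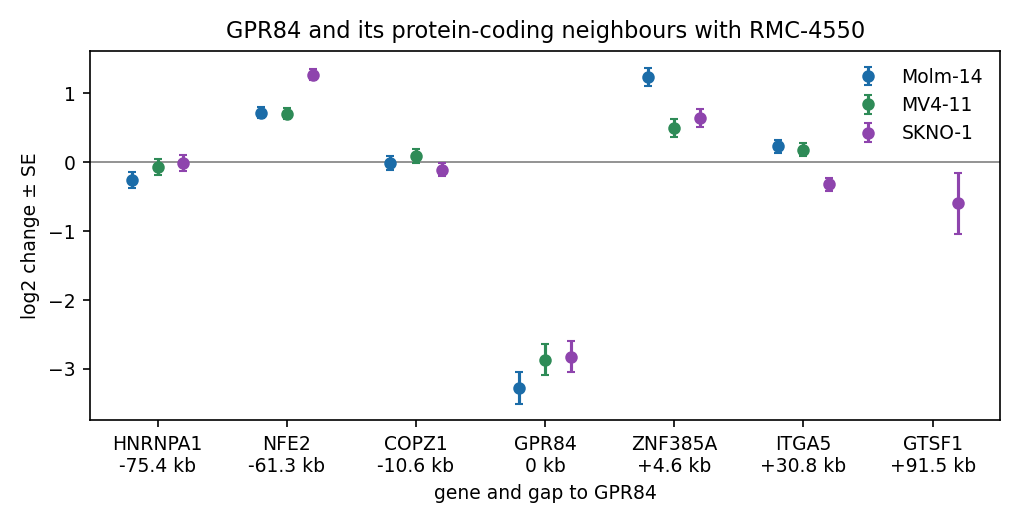
Log2 change with RMC-4550 of GPR84 and of its nearest protein-coding neighbours against their distance from GPR84 in kilobases, by line, with standard errors. GPR84 lies between -3.28 and -2.82, and the neighbours between -0.60 and 1.27.

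The pattern of GPR84 over the 18 libraries was compared with that of every other gene by the root mean square difference of log2 values after centring each gene on its own mean. The nearest were ETV4 (0.58), TNF (0.72), UBL4B (0.97), BATF3 (0.98) and SDC4 (1.00), against a median of 2.35 over 16261 genes. UBL4B had at most 34 reads in an untreated Molm-14 library and at most 2 in a treated SKNO-1 library. It was tested in Molm-14 alone, where it met the filter through its DMSO libraries alone. ETV4 went from 19.9 to 1.86 CPM in Molm-14, from 10.6 to 3.40 in MV4-11 and from 1.81 to 0.169 in SKNO-1, where its treated libraries had 5, 3 and 3 reads. Like GPR84, it was highest in untreated Molm-14, intermediate in untreated MV4-11 and lowest in SKNO-1. BATF3, a transcription factor of dendritic cells, went from 10.7 to 2.85, from 7.04 to 3.54 and from 1.10 to 0.462 CPM. SDC4, a cell surface proteoglycan, went from 13.4 to 6.24, from 7.45 to 4.41 and from 1.19 to 0.369 CPM. In treated SKNO-1, BATF3 had at most 12 reads in a library and SDC4 at most 11. The measure includes the drug contrast that chose GPR84, so the likeness is a description.

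**Figure D5:**
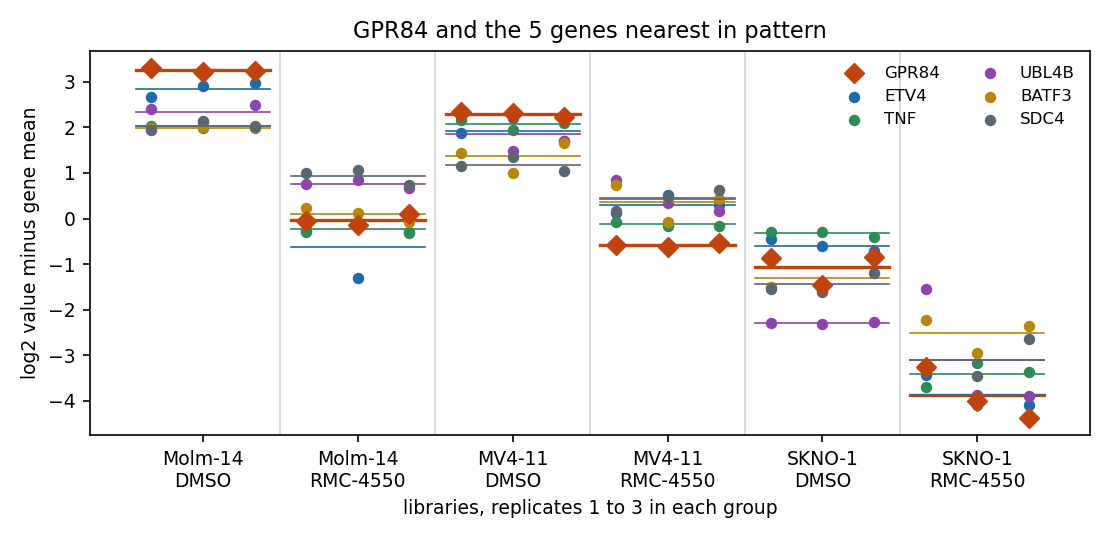
Log2 value minus the gene's own mean over all 18 libraries for GPR84 and the 5 genes nearest in pattern; points are libraries and short lines are group means. All 6 genes have their highest group mean in untreated Molm-14 or MV4-11 and their lowest in SKNO-1 with RMC-4550.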

How the data were processed

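RNA-seq was measured in 18 libraries, 3 in each of 6 groups. The authors deposited 1 table of log2 values for 40184 Ensembl gene IDs, and 40069 IDs matched a symbol in a reference table of gene names. Positions and exon lengths were read from GENCODE 29. FastQC, STAR, limma and GRCh38 are named in the submitters' processing notes. The counter, annotation, strand setting and filter are not given in the sources used here. From the values, each was the log2 of reads plus 0.5, relative to a scaled library size. Undoing this gave whole reads for 100% of values under 200 reads, within 0.02 reads, with scaling factors of 0.890 to 1.11. These reads gave CPM and the Poisson intervals.

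The log2 values were used as deposited, because they already were logarithms and the pseudocount of 1 planned for linear values was not needed. The fit took the 16262 genes that reached 1 CPM in 3 or more libraries, and used limma 3.58.1 in R 4.3.3, with 1 coefficient per group, an intensity trend, and Benjamini-Hochberg adjustment over genes that passed the same filter within the contrast. A call was an adjusted p under 0.05 (two-sided). Each p-value weighs a difference against the spread between these samples within groups. That spread was pooled over all 6 groups, so it is not that of a single line. On simulated data for Molm-14 over 16262 genes, 94 of 102 genes changed by 1 and 98 of 98 changed by 2 on the log2 scale were called with the right sign, and 5.42% of calls were unchanged genes. The simulation changed only these genes, drew reads independently and held no library differences such as the mitochondrial share. Replicates 1 and 2 of treated Molm-14 had a chi-square of 150 per gene, so these rates may not hold for the real libraries.

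GPR84 and the lists were chosen with earlier results of these data known. Genes were named by rule: up to 5 members of each list called alike in all lines, the largest called fall and rise per list and line, 5 genes nearest in pattern, 3 genes ranked on either side of GPR84, 3 neighbouring genes on either side, PTPN11 and overlapping genes. For SKNO-1 the ranks were taken over all genes tested. OCSTAMP, ANKRD18DP and CXCR4 were named after their values were seen. Replicates were checked by chi-square of reads (at least 1.67 per gene in 18 pairs), and none was a duplicate. The planned test of GPR84 between lines with DMSO is given as values alone, since its levels enter the choice. Alternatives are described in the closing part. Plots used matplotlib 3.10.9 (Python 3.11.15).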

Additional observations from a re-analysis of the deposited data

Results flagged for a closer look

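A few of the genes named beside GPR84 had treated libraries all above the controls in one line and all below them in another. This held for 5 of the 38 named genes tested in 2 or more lines, and for 4.53% of all 14653 such genes, but the named genes were picked partly for large changes in a line. These differences between lines were not tested. RGS1, a regulator of Gi signalling, was at 0.70 in Molm-14 and at -0.56 in MV4-11 on the log2 scale. Its MV4-11 call (limma adjusted p = 0.047) was lost in 12 of 18 fits that left out 1 library, and in a separate fit (0.187). GPSM1 was at 3.21 in Molm-14 and -0.30 in SKNO-1, where it was not called (limma adjusted p = 0.42). In Molm-14 it met the filter for testing through its treated libraries alone, so it had to differ there. NKD2, an inhibitor of Wnt signalling, was at 0.68 for Molm-14, -0.71 for MV4-11 and -0.20 for SKNO-1, the last not called (limma adjusted p = 0.31). A separate fit of MV4-11 lost the NKD2 call there (limma adjusted p = 0.076). MLPH was at -1.95 in MV4-11 and 0.40 in SKNO-1, where it was not called (limma adjusted p = 0.14). The integrin gene ITGA5, a neighbour of GPR84, was at 0.23 in Molm-14, not called (limma adjusted p = 0.053), and -0.32 in SKNO-1. GPR84 itself moved one way in all 3 lines.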

How the results depend on the processing

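The change of GPR84 kept its sign under all 29 settings other than the one reported. Leaving out each library in turn gave -3.34 to -3.22 in Molm-14, -2.90 to -2.84 in MV4-11 and -3.13 to -2.57 in SKNO-1. On the log2(CPM + 1) scale it was -2.94, -2.43 and -1.10, and after quantile normalization -3.11, -3.004 and -3.42. Leaving out each library gave DMSO differences of -4.41 to -4.10 for SKNO-1 against Molm-14, -3.45 to -3.15 for SKNO-1 against MV4-11 and 0.93 to 0.98 for Molm-14 against MV4-11. Of 95 calls of named genes in a line, 65 held under every setting, 30 were lost under at least 1 and 0 changed sign.

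Counts of calls moved more. A separate limma fit per line gave 326 genes higher and 345 lower in MV4-11, and 3453 and 4756 in SKNO-1. The mitochondrial share as a covariate, chosen after seeing the data, gave 1788 and 3266 in MV4-11 and 2937 and 4333 in SKNO-1. Without the 4 libraries over 10% mitochondrial reads, also chosen after seeing the data, 2684 were lower in MV4-11, and 3111 were higher and 4707 lower in SKNO-1; the lone MV4-11 control was assumed to vary like the other groups. Median-ratio scaling moved the share of calls that were higher in SKNO-1 from 40.0 to 50.6%. Leaving out 1 library gave 452 to 1415 higher and 725 to 1590 lower in MV4-11, and 1003 to 1994 higher in SKNO-1.

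For the receptors, the separate fit called 2 lower in Molm-14, 3 higher and 0 lower in MV4-11 (2 lower at an unadjusted p under 0.05) and 25 higher in SKNO-1. The covariate gave 22 and the 14 libraries 23 higher in SKNO-1, no filter 9 higher in MV4-11, and median-ratio scaling 1 lower in SKNO-1. Leaving out 1 library gave 2 to 7 lower in Molm-14, 6 to 19 higher and 1 to 2 lower in MV4-11, and 9 to 17 higher and 0 to 2 lower in SKNO-1.

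For Gi signalling, the separate fit gave 1 higher and 0 lower in MV4-11 (5 lower unadjusted) and 13 and 14 in SKNO-1. The covariate gave 7 and 14 in MV4-11. The 14 libraries gave 10 lower in Molm-14, 5 higher and 8 lower in MV4-11, and 13 and 14 in SKNO-1. In MV4-11, log2(CPM + 1) gave 4 higher, and no filter gave 0 lower (9 unadjusted), median-ratio scaling 0 (7 unadjusted), quantile normalization 1 and no trend 2. No filter gave 4 higher in SKNO-1. Leaving out 1 library gave 1 to 5 higher and 0 to 6 lower in MV4-11, and 3 to 9 and 2 to 7 in SKNO-1.

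For inflammatory genes, the separate fit gave 1 higher and 4 lower in MV4-11 and 5 and 13 in SKNO-1. The 14 libraries gave 8 higher in Molm-14 and 6 higher in SKNO-1. No filter gave 11 lower in Molm-14, 2 higher in MV4-11 and 5 lower in SKNO-1, a mean of at least 5 CPM 4 lower in SKNO-1, and quantile normalization and no trend each 2 higher in MV4-11. Leaving out 1 library gave 2 to 4 higher in MV4-11 and 3 to 9 lower in SKNO-1.

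For beta-catenin genes, the separate fit gave 0 higher and 0 lower in MV4-11 (2 and 1 unadjusted) and 9 and 15 in SKNO-1. The covariate gave 13 higher in Molm-14, 5 lower in MV4-11, and 8 and 11 in SKNO-1. The 14 libraries gave 11 higher in Molm-14, 0 higher (3 unadjusted) and 6 lower in MV4-11, and 8 and 13 in SKNO-1. No filter gave 3 lower in Molm-14, 0 higher in MV4-11 (4 unadjusted) and 2 lower in SKNO-1. Quantile normalization gave 12 higher in Molm-14, 1 higher in MV4-11 and 3 lower in SKNO-1, median-ratio scaling 2 lower in SKNO-1, and no trend 1 higher in MV4-11. Leaving out 1 library gave 2 to 6 lower in Molm-14, 0 to 6 higher and 1 to 4 lower in MV4-11, and 2 to 6 lower in SKNO-1. The causes of these shifts were not tested.

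With the replicate number as a block, GPR84 was at -3.28, -2.87 and -2.82, and in MV4-11 2 Gi signalling genes were lower, 2 inflammatory genes higher and 2 beta-catenin genes lower. Same-numbered libraries had correlations of -0.40 to 0.59, over 0.1 in 3 of 9 pairs. In MV4-11, libraries of unlike number ranged as widely, from -0.72 to 0.64, so this check cannot decide whether libraries were paired by number. Of 9 controls, 3 were closest to their own number. By Pearson correlation 0 of the 5 nearest genes were the same. Depth limits SKNO-1 most, where 3 to 7 treated reads bound the precision.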

Other observations

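MV4-11 held an intermediate GPR84 level between the other lines both with DMSO and with RMC-4550. Of the 16262 genes fitted, MV4-11 lay between Molm-14 and SKNO-1 for 52.8% with DMSO and for 69.2% with the drug, so the position is a common one. PTPN11, which encodes the drug's target SHP2, was called lower in Molm-14 (limma adjusted p = 0.0013). It stood at -0.30 on the log2 scale in MV4-11 (limma adjusted p = 0.42). In SKNO-1 it stood at -0.64 (limma adjusted p = 0.037), a call that did not survive leaving out any 1 of the 6 SKNO-1 libraries (-0.68 to -0.59), the filter on low values (limma adjusted p = 0.062) or the trend (0.053). The receptor CCR7, which guides cells to lymph nodes, rose by 2.16 in Molm-14 and was below the filter for testing in the other lines. In Molm-14 it met that filter through its treated libraries alone, with at most 7 reads in a DMSO library, so it had to differ.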
